A study of Mus musculus with 2 samples.

Results

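Wide footprints are the autosomal DNase I footprints of 20 bp or more that lay wholly inside a DNase peak of mouse embryonic liver. They were chosen from the footprint list of 1 library, technical replicate 7, by their width (end minus start) and by their place in the stricter of its 2 peak lists. The rule took 8759 of 90943 autosomal footprints inside peaks, or 9.63%. The whole list holds 107626 footprints, 105360 of them on the 19 autosomes, and 54 of the 8813 autosomal footprints of 20 bp or more were left out because they did not lie wholly inside a peak.

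The series comprises 2 DNase-seq libraries, technical replicates 7 and 1, of biological replicate 1. Both were made from liver of B6NCrl mouse embryos of 11.5 days, with male and female embryos pooled. There is no second tissue, age, genotype or treatment, so the comparisons below are between classes of footprint and not between conditions. No value has a biological error, and every interval is a 95% interval that covers counting error only. Per the labels, technical replicate 7 was sequenced on 2 instrument models, and no model is named for the other library. The footprint lists of the 2 libraries also came from different processing, which cannot be told apart from a difference between the libraries. Peaks within 1 kb of a transcript start were counted for lists of marker genes on the autosomes. Of hepatoblast genes 28 of 31 had one and of erythroid genes 27 of 30, against 2 of 14 macrophage, 7 of 16 striated muscle and 4 of 14 lymphoid genes. A start peak was no mark of the tissue alone, since 12 of 16 neuronal, 17 of 20 mesenchymal and stellate and 11 of 15 endothelial genes had one too. So had 18 of 20 haematopoietic progenitor, 8 of 12 megakaryocyte, 18 of 18 housekeeping and 38 of 38 ribosomal protein genes. The share among all autosomal protein-coding genes is not given here, so these counts are a description and no check of the tissue.

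DNase I cuts DNA that is open, and a protein that sits on open DNA shields the bases it covers. A footprint is a short stretch with fewer cuts than its surroundings. Long recognition sequences are read by proteins with many zinc fingers, such as CTCF, the insulator and loop-anchoring factor, and REST, which silences neuronal genes outside the nervous system. NRF1, the cyclic AMP response factors of the CREB family, SP factors and the trimeric CCAAT-binding factor NFY are known for their sites close to transcript starts. GATA and TAL1 factors direct red cell genes, and HNF, FOXA and C/EBP factors direct liver genes.

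The sequences below show, for each motif that was most in excess in wide footprints and for SP and NFY, wide footprints from the peaks of highest density that hold the motif wholly inside the footprint, 1 or 2 for each motif. Peak density is the highest density of DNase cuts that the list gives for the peak, on a scale its header does not state. Each runs 5′ to 3′ along the motif, with the motif match in capitals. Each sequence is from the RefSeq copy of the reference genome, build GRCm38 (coordinates as mm10). The footprint is shown with 10 bases to each side, or without them where the stretch touches an annotated untranslated region.

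CTCF, chr4:132212300-132212325, minus strand, 9 bp from a start of Ythdf2: cagcCCAGCAGAGGGCGccacgggcg
CTCF, chr17:56255937-56255981, minus strand, 851 bp from a start of Fem1a: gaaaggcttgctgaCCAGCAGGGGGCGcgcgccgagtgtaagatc
REST, chr14:63681607-63681654, plus strand, intron of Xkr6: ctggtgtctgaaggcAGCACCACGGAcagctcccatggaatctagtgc
REST, chr7:6410271-6410299, plus strand, 8 bp from a start of Gm20715: tggttcAGCACCAAGGAcagcgtgccttt
CREB, chr5:135778513-135778535, plus strand, 44 bp from a start of Mdh2: agagaatcgTGACGTCAggcctc
CREB, chr16:22009394-22009434, plus strand, 70 bp from a start of Senp2: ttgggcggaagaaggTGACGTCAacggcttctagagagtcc
NRF1, chr7:45395725-45395746, plus strand, 7 bp from a start of Snrnp70: tcgcaatGCGCATGCGccgtac
NRF1, chr7:127017378-127017425, plus strand, 49 bp from a start of Pagr1a: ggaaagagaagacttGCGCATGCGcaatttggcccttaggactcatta
RFX, chr16:35981653-35981714, minus strand, 542 bp from a start of Gm15564: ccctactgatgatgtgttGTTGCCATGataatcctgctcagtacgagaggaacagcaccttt
RFX, chr11:108425175-108425200, minus strand, 5 bp from a start of Cep112: actctGTTGCCATGgcgacgctccgg
G run, chr1:75317936-75317977, minus strand, 297 bp from a start of Dnpep: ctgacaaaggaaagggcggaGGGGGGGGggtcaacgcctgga
SP, chr8:47675335-47675375, minus strand, 36 bp from a start of AA386476: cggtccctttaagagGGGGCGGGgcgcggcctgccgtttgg
NFY, chr12:32455448-32455519, minus strand, between genes: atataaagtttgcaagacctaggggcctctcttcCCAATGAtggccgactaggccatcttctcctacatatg
NFY, chr5:129787295-129787317, plus strand, 143 bp from a start of Psph: agCCAATCAgcgggcggcaggag

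The 2 CTCF footprints were 26 and 25 bp wide, and their midpoints lay in footprints of technical replicate 1 of 29 and 26 bp. Those of the REST footprints, of 28 and 29 bp, lay in footprints of 29 and 27 bp. For CREB the widths in technical replicates 7 and 1 were 23 and 23 bp at Mdh2, and 21 and 7 bp at Senp2. For NRF1 they were 22 and 34 bp at Snrnp70, and 28 and 29 bp at Pagr1a. For RFX they were 42 and 47 bp near Gm15564, and 26 and 23 bp at Cep112. They were 22 and 28 bp for the G run, 21 and 27 bp for SP, and 23 and 13 bp for NFY at Psph. All footprints shown had their midpoint in a footprint of technical replicate 1 except the 52 bp NFY footprint between genes, which is also among the widest members. That NFY footprint lay wholly in lower-case, repeat-masked reference sequence, in a peak of density 11.1 that was not shared with technical replicate 1. The RFX footprint near Gm15564 lay in a peak of density 21.02, the highest of those shown. It was 42 bp wide, against a median of 21 bp for the 37 wide footprints with the RFX string. The part of mapping at this site was not tested.

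Most wide footprints were only a little over the width that chose them. Their median width was 23 bp (quartiles 21 and 27), against a median of 9 bp over all footprints inside peaks, and 5242 were of 20 to 24 bp, 2687 of 25 to 29 bp, 769 of 30 to 43 bp and 61 of 44 bp or more. They covered 214165 bases. Just outside the rule lay 1674 footprints of 19 bp and just inside it 1359 of 20 bp. Of these, 55.7% and 52.4% lay at starts, 76.5% and 77.2% had their midpoint in a footprint of technical replicate 1, and 12.4% and 14.7% held the CTCF consensus.

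**Figure D1:**
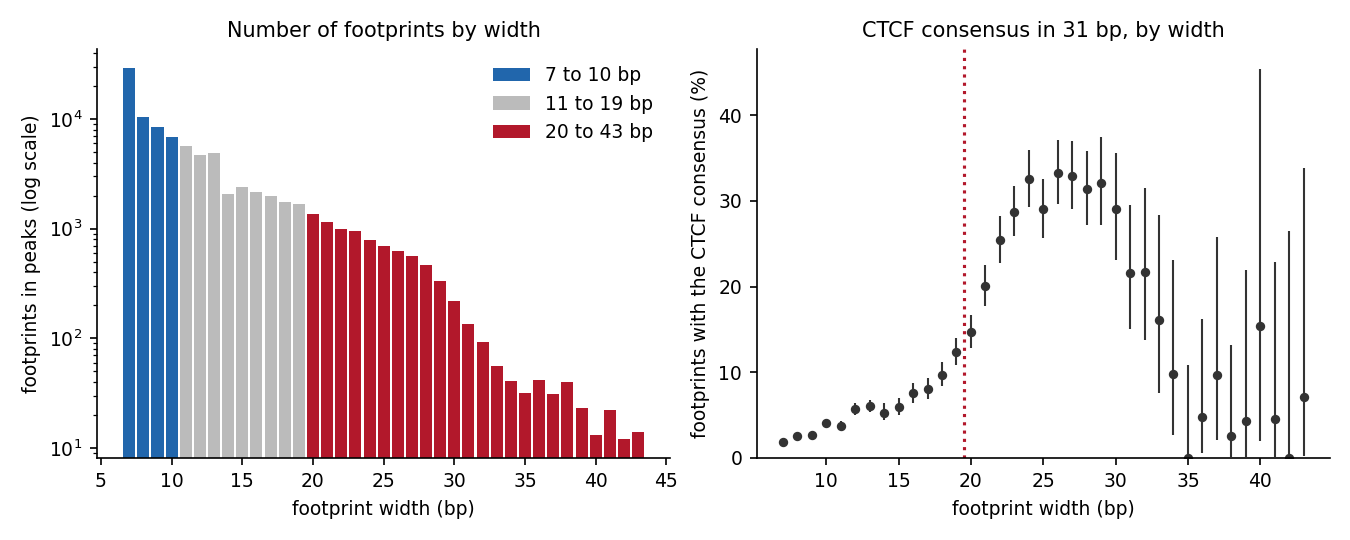
Left, number of footprints inside peaks by width (bp; log scale), with the narrow class of 7 to 10 bp in blue and the wide members of up to 43 bp in red. Right, share of footprints of each width with the CTCF consensus within 31 bp of sequence (%; bars, exact 95% intervals; dotted line, the width that chose the members), which rose from 1.89% at 7 bp to 33.3% at 26 bp and was 9.76% at 34 bp.

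The members lay in 8181 of 83870 autosomal peaks. Of these peaks 7676 held 1 wide footprint, 434 held 2 and 71 held 3 or more, with 4 as the highest number. Peaks with a wide footprint were denser than the others. Their median density was 1.64 (quartiles 1.14 and 3.05), against 0.753 for peaks with narrower footprints only and 0.481 for peaks with none. In the lowest decile of peaks by density 0.0477% held a wide footprint, in decile 5 1.51%, in decile 8 21.3%, in decile 9 30.3% and in the highest 29.2%. Peaks shared with technical replicate 1 made up 78.5% of the peaks with a wide footprint (77.6 to 79.4), 48.2% of those with narrower footprints only and 36.3% of those with none. The part of cut density in which footprints were called as wide was not tested.

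Where possible, wide footprints were set against the 6880 footprints of 7 to 10 bp in the same peaks, called narrow here, which were found in 4327 of those 8181 peaks. This takes both classes from 1 set of peaks, but not with equal weight: 78.1% of the wide and 85.4% of the narrow footprints overlapped a peak of technical replicate 1. It also means that a site already under a wide footprint of a peak cannot be under a narrow one, so the 54972 footprints of 7 to 10 bp of all peaks are given as a second comparison.

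Wide footprints lay less often at transcript starts than narrow footprints of the same peaks. Within 1 kb of a start lay 35.3% of the wide ones (34.3 to 36.3, 3092 of 8759) and 52.3% of the narrow ones (51.1 to 53.5), a difference of -17.0 percentage points (-18.5 to -15.4). Of the narrow footprints of all peaks 42.8% lay there, which leaves a difference of -7.50 points. Within 1 kb of starts lay 37.9% of the bases of peaks with a wide footprint. Outside starts, 28.7% of wide footprints lay in introns and 32.2% between genes, against 19.3% and 24.8% of the narrow ones, and exons held 3.81% and 3.53%. Read the other way, 7.33% of the footprints at starts were wide, 10.4% of those in introns, 10.8% of those in exons and 13.1% of those between genes.

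The share at starts did not move in 1 direction with width. It was 40.6% at 7 bp and 65.0% at 14 bp, then 44.7% at 21 bp and 24.1% at 28 bp. Members with the CTCF consensus lay at starts in 8.78% of cases (7.63 to 10.04), those without it in 44.2% (42.99 to 45.4). With 1 mismatch allowed in the consensus, the shares were 11.4% with it and 59.7% without it. Wide footprints without such a match thus lay at starts more often than the 52.3% of narrow ones, and those with it less often. That 52.3% is over the narrow footprints of all peaks with a wide footprint, and these peaks were not split by the match.

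**Figure D2:**
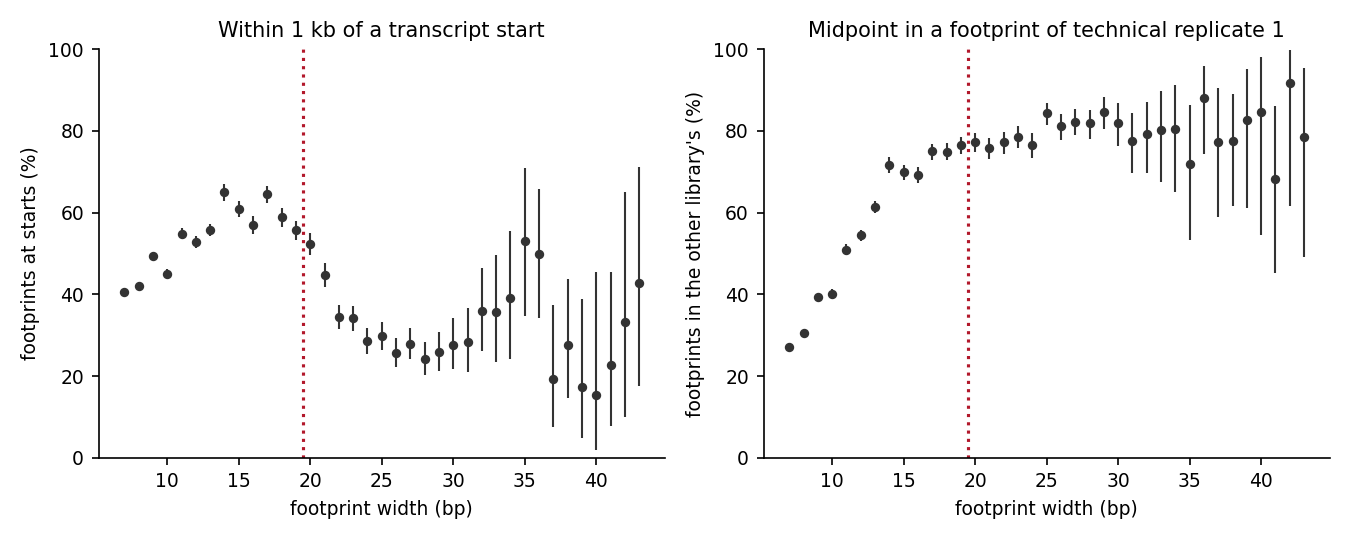
Share of footprints within 1 kb of a transcript start (left, %) and with their midpoint in a footprint of technical replicate 1 (right, %), by width in bp. Points are shares over all footprints of that width inside peaks, bars are exact 95% intervals and the dotted line marks the width that chose the members: the start share was 65.0% at 14 bp and 24.1% at 28 bp, and the share in the other library was 27.1% at 7 bp and 84.3% at 25 bp.

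At starts, wide footprints stood mostly upstream. Of the 3092, 74.5% had their midpoint upstream of the nearest start and 45.4% lay within 100 bp upstream, with a median position of -49 bp (quartiles -119 and 0.25). The narrow footprints at starts lay upstream in 67.6% of cases and within 100 bp upstream in 35.2%, with a median of -42 bp.

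The footprint list of technical replicate 1 was not used to choose the members, and it held a footprint over most of them. The midpoint of 78.7% of wide footprints (77.9 to 79.6, 6897 of 8759) lay in such a footprint, against 43.98% of narrow ones (42.8 to 45.2), a difference of 34.8 points (33.3 to 36.2). Footprints of technical replicate 1 covered 19.7% of the bases of the same peaks. Over 1 kb from any start the shares were 72.0% and 33.3%, and in peaks shared by both libraries 92.3% and 48.7%. The shares with and without the CTCF consensus, 78.2% and 78.9%, had overlapping intervals. With 1 mismatch allowed they were 75.7% with it (74.5 to 77.0) and 81.8% without it (80.6 to 82.9).

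The second library also gave wide footprints at these places. Of the 6897 footprints of technical replicate 1 that held a member's midpoint, 76.8% were of 20 bp or more (75.8 to 77.8) and their median width was 26 bp. Of those over narrow footprints 27.7% were, with a median of 13 bp, and of all footprints of technical replicate 1 inside its own peaks 12.6% were. A wider footprint holds more midpoints by its width alone, which raises the first shares over the last. The edges of the paired footprints differed by a median of 2 bp, and 51.3% lay within 2 bp of each other. For narrow footprints the values were close to these, at 2 bp and 50.8%. Over the 6897 pairs the widths had a Spearman correlation of 0.30, a description over sites of 1 sample.

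**Figure D3:**
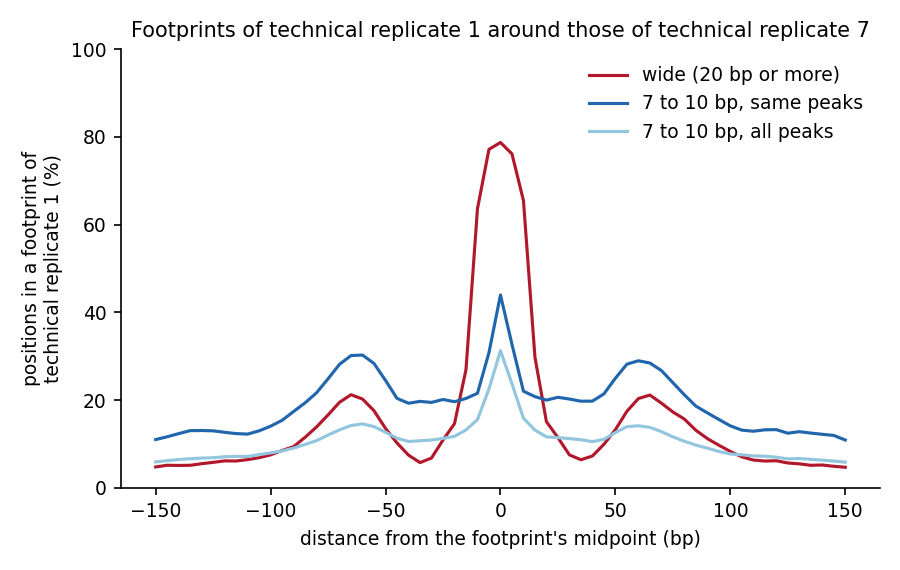
Share of positions in a footprint of technical replicate 1 (%) by distance from the midpoint of a footprint of technical replicate 7 (bp), for wide footprints (red) and for footprints of 7 to 10 bp in the same peaks (blue) or in all peaks (light blue). The wide curve stood at 78.7% at 0 bp, 6.40% at 35 bp and 21.2% at 65 bp, and the narrow curve of the same peaks at 43.98%, 19.8% and 28.5%.

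Around the midpoint of a wide footprint, footprints of technical replicate 1 were sparse and then frequent again. At 35 bp to either side 5.75% and 6.40% of positions lay in one, and at 65 bp to either side 21.2%. Around narrow footprints of the same peaks the shares at 35 bp were 19.7% and 19.8%. At 65 bp they were 30.2% and 28.5%, so a rise there was not particular to wide footprints. Of the bases of peaks with a wide footprint, 19.7% lay in a footprint of technical replicate 1. Among the calls of technical replicate 7 itself, 67.0% of the members had another footprint in their peak, at a median distance of 65 bp between midpoints, and of all such distances the fullest class of 10 bp was that of 60 to 69 bp, with 16.5%.

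The sequence inside wide footprints was rich in G and C, and whether richer than that of narrow ones depended on the window and place. Mean GC inside the footprint was 64.7% ± 12.4 (SD, n = 8759) in wide and 66.2% ± 19.7 (SD, n = 6880) in narrow footprints, a difference of -1.45 points (-1.98 to -0.912). In a window of 31 bp around the midpoint, the same length for both, wide footprints were higher, at 61.7% against 58.3%, a difference of 3.47 points (3.06 to 3.88). Inside the footprint the difference was 3.83 points over 1 kb from any start and -3.30 points within 1 kb of one. The 25 bp to each side of a wide footprint had 53.2% GC, and whole peaks with one 54.2%. CpG dinucleotides occurred 62.1 times per kb inside wide footprints and 83.6 times inside narrow ones. In the 31 bp window the values were close, at 57.8 times per kb for wide and 59.2 for narrow footprints. Inside the members with the CTCF consensus CpG occurred 32.8 times per kb and inside those without it 71.9 times.

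Motifs were compared in the 31 bp window, on both strands, since a longer stretch holds more matches by its length. Each motif is a fixed string of letters, so a match is a description and not a bound site, and weaker sites are missed. Some strings overlap: NFE2 contains AP1, the TAL1 and GATA pair can share bases with GATA, and SP, MAZ and the G run are all rich in G. Of the 33 motifs searched, 8 had a higher share in wide than in narrow footprints with an interval that left out 1, 8 had a lower share, 15 had an interval that held 1 and 2 had no match in wide footprints. At least 1 motif was found in 43.4% of wide footprints (3800), and 197 held 2 or more. The other 4959 matched none of these strings. With 1 mismatch allowed in the CTCF consensus, 2844 matched none.

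CTCF had the highest ratio of the 33 motifs. Its 13-letter consensus was found in 25.1% of them (24.2 to 26.0, 2199 of 8759), in 0.218% of narrow footprints of the same peaks (15 of 6880) and in 0.526% of all 31 bp tiles of peaks. The ratio was 115 (69.4 to 191). Against the narrow footprints of all peaks, of which 2.40% held it, the ratio was 10.4, and 14.7 once these were weighted to the peak densities of the wide ones. With 1 mismatch allowed, 50.5% of wide footprints (4424), 1.09% of narrow ones of the same peaks and 1.59% of tiles held it. Over 1 kb from any start 35.4% of wide footprints held the exact consensus, and at starts 6.24%.

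Read from the motif, 41.9% of the 5243 footprints with the CTCF consensus in their window were wide (40.6 to 43.3), against 9.63% of all footprints inside peaks. Of 5671 matches in the peaks 38.95% lay under a wide footprint, 27.6% under one of 11 to 19 bp, 9.54% under one of 7 to 10 bp and 23.9% under none. This moved with peak density: 0.413% of matches in the lowest quintile of peaks lay under a wide footprint, 11.7% in the middle one, 46.1% in the next and 77.6% in the highest (75.3 to 79.8).

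The edges of wide footprints stood close around the CTCF consensus, and the 5′ edge was less spread than the 3′ edge. The most frequent distance was 5 bp on the 5′ side, with 31.2%, and 6 bp on the 3′ side, with 13.2%. The footprint reached a median of 4 bp beyond the 5′ end of the consensus (quartiles 4 and 5) and 7 bp beyond its 3′ end (5 and 9). The median width was 24 bp, and 96.5% held the consensus whole. These matches had to lie in the 31 bp window, most of which a wide footprint covers, and that favours a high share held whole. A member of 20 bp or more that holds the 13-letter consensus whole must also reach beyond it, so the distances and the width stem partly from the rule. Around the consensus, bases outside it were also uneven. Under wide footprints T stood at 47.3% of sites 12 bases before the consensus, and A at 38.7% 14 bases before it. At matches under no footprint the shares were 43.8% and 30.98%. Within the consensus its 13th letter, A or G, was G at 50.1% of matches under wide footprints and at 23.6% of matches under none, and its 8th letter was G at 58.5% and 36.4%.

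The surroundings of these CTCF footprints were not alike on both sides. Of the 1589 other footprints of technical replicate 7 in their peaks, 428 had their midpoint 15 to 39 bp away on the 5′ side and 43 at that distance on the 3′ side. At 50 to 79 bp the order was the other way, with 286 on the 5′ side and 608 on the 3′ side. Technical replicate 1, which did not choose the members, had a footprint at 17.1% of positions 20 bp to the 5′ side (15.6 to 18.8) and at 4.41% of those 20 bp to the 3′ side (3.59 to 5.35). At 65 bp the shares were 8.73% (7.58 to 9.99) and 17.7% (16.1 to 19.4).

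**Figure D4:**
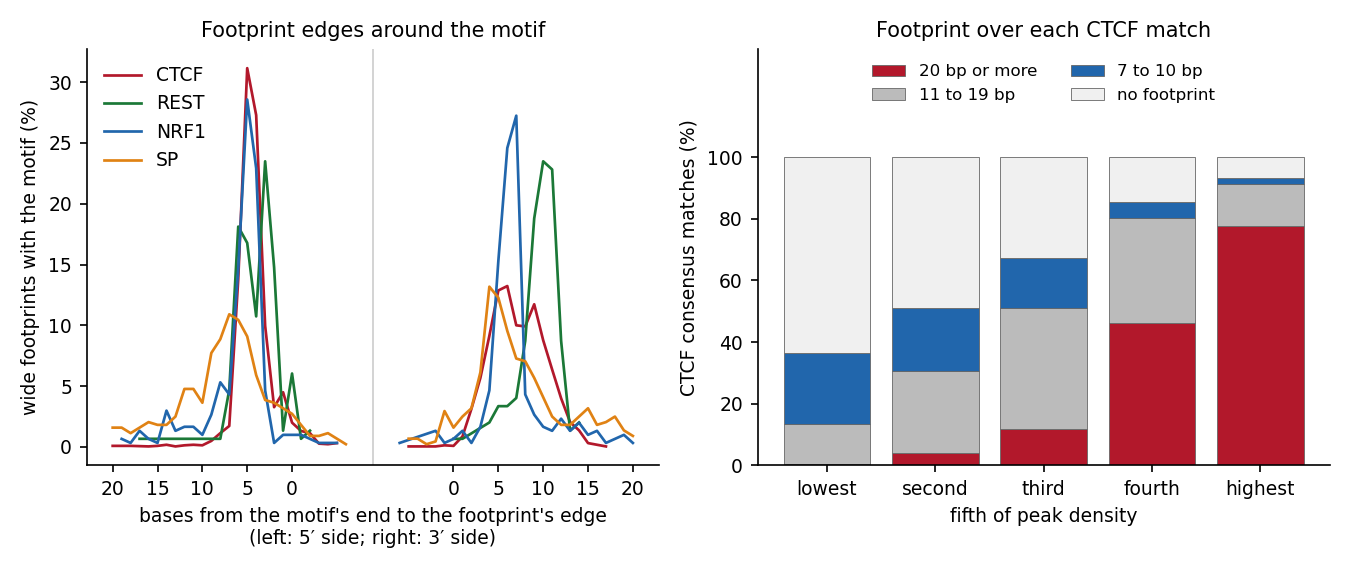
Left, distance in bases from each end of the searched string to the edge of the wide footprint (%, of wide footprints with the motif): the 5′ edge peaked at 5 bases for CTCF and 3 for REST, the 3′ edge at 6 and 10. The REST string is a part of its recognition sequence. Right, share of CTCF consensus matches in peaks (%) under a footprint of each width class or under none, by quintile of peak density: the share under footprints of 20 bp or more was 0.413% in the lowest quintile and 77.6% in the highest.

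REST was the second motif by ratio. It was searched as AGCACC and GGA separated by 2 bases, which is a part of its long recognition sequence. This string was found in 1.70% of wide footprints (149), 0.102% of narrow ones of the same peaks (7) and 0.0844% of tiles. The ratio was 16.7 (7.84 to 35.7), and 5.88 against narrow footprints of all peaks. Of the 461 footprints with this string 32.3% were wide. Wide footprints reached a median of 4 bp beyond the string's 5′ end and 10 bp beyond its 3′ end, and 98.0% held it whole. The distances are from the searched string and not from the whole recognition sequence. As for CTCF, the 31 bp window favours a high share held whole, and the width rule makes such a footprint reach beyond the string. The 5′ edge was spread over several bases, standing 3 out in 23.5% of the 149, 4 out in 10.7%, 5 out in 16.8% and 6 out in 18.1%. These members lay at starts in 22.1% of cases, and 85.9% had their midpoint in a footprint of technical replicate 1.

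Motifs of promoters formed the third group. NRF1, searched as GCGCANGCG, was found in 3.44% of wide footprints (301), 1.28% of narrow ones and 0.374% of tiles, a ratio of 2.69 (2.12 to 3.40). CREB, searched as TGACGTCA, was found in 1.302%, 0.422% and 0.104%, a ratio of 3.09 (2.06 to 4.64). RFX, a factor family of ciliary genes, searched as GTTGCCATG, was found in 0.422%, 0.160% and 0.0640%, a ratio of 2.64 (1.35 to 5.18). The SP string GGGGCGGG was found in 5.02% (440), 3.36% and 1.35%, a ratio of 1.496 (1.28 to 1.75). Of the wide footprints with these strings 91.4% (NRF1), 93.0% (CREB), 70.3% (RFX) and 92.3% (SP) lay at starts.

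Within starts alone the ratios of NRF1, CREB and SP were higher. The ratio there was 3.95 for NRF1, 4.93 for CREB and 2.24 for SP, with 13.1% of wide and 5.87% of narrow footprints at starts holding SP. Over 1 kb from any start the SP ratio was 0.985, with 34 wide footprints. Against narrow footprints of all peaks weighted to the same peak densities, the SP ratio was 1.03. In the lists of technical replicate 1 the ratios were 4.13 for NRF1, 6.89 for CREB and 4.74 for SP. The SP string occurred more than once in the window of 72 wide and 6 narrow footprints. The median width of wide footprints with NRF1 or SP was 21 bp, and they were more often in a footprint of technical replicate 1 than the members as a whole, at 95.7% and 96.8%.

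**Figure D5:**
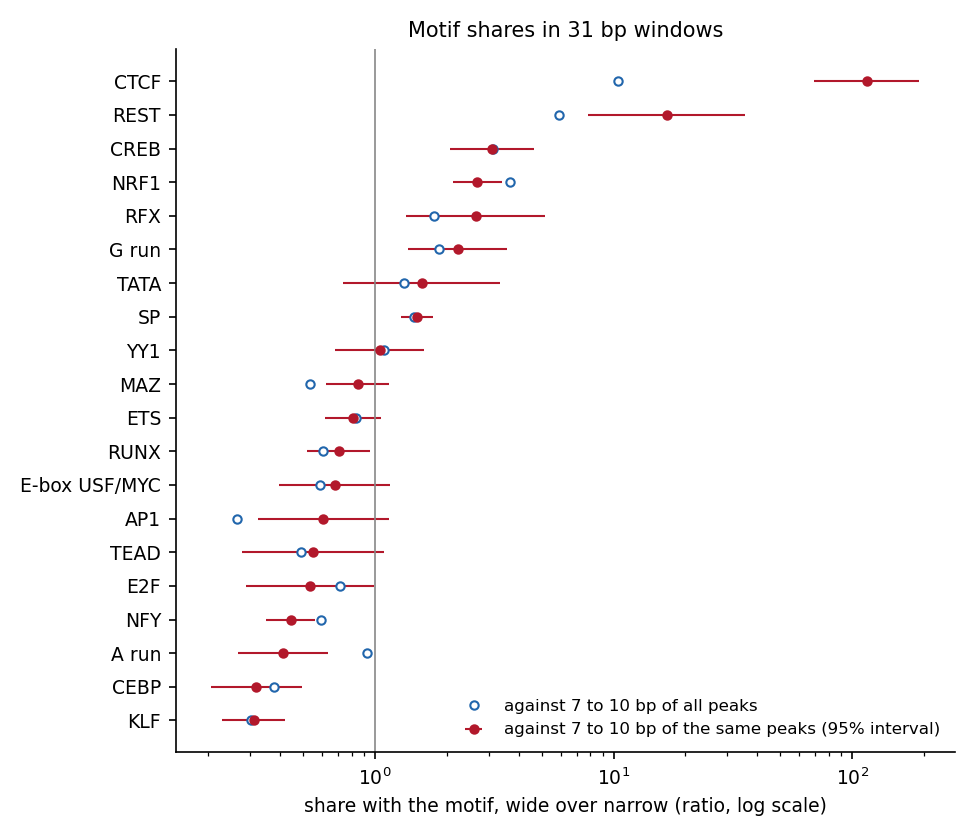
Share of wide footprints with a motif over the share of footprints of 7 to 10 bp (ratio, log scale), against those of the same peaks (red, with 95% intervals) and of all peaks (open blue), for motifs with at least 30 matches in wide and narrow footprints of the same peaks together. CTCF stood at 115 and 10.4, NRF1 at 2.69 and 3.67, NFY at 0.444 and 0.596 and KLF at 0.310 and 0.302.

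NFY went the other way. Its string, CCAATCA or CCAATCG or CCAATGA or CCAATGG, was found in 1.19% of wide footprints (104), 2.67% of narrow ones of the same peaks (184) and 1.23% of tiles, a ratio of 0.444 (0.350 to 0.563). Of the 1769 footprints with it 5.88% were wide, against 9.63% of all footprints in peaks. Footprints of 7 to 10 bp made up 61.9% of them and 60.4% of all. Of the 104 members, 64.4% held it whole inside the footprint. The footprint's edges were spread, with a standard deviation of 8.70 bp on the 5′ side against 2.39 bp for CTCF. The NFY string is shorter than the CTCF consensus and has more room in the 31 bp window, which bears on both comparisons.

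Of the other strings with a lower share in wide footprints, KLF (CCNCACCC, the string of the erythroid factor KLF1 and its relatives) had a ratio of 0.310 (0.229 to 0.419), with 0.662% of wide and 2.14% of narrow footprints. In the lists of technical replicate 1 its ratio was 1.23. C/EBP (TTGCNNAA) had a ratio of 0.319, RUNX (TGNGGTT) 0.705, PU1 (GAGGAAGT) 0.363 and E2F (GGCGGGAA) 0.534. A run of 8 A had a ratio of 0.413, but 0.922 (0.633 to 1.34) against narrow footprints of all peaks, 0.917 with narrow footprints weighted to the GC of the wide ones and 1.38 at starts. The TG repeat TGTGTGTG had a ratio of 0.344. A run of 8 G had a ratio of 2.22, which was 0.944 outside lower-case, repeat-masked sequence and 0.837 over 1 kb from any start. These strings were held by 1.61% (KLF), 0.968% (C/EBP), 1.54% (RUNX), 0.275% (PU1), 0.174% (E2F), 0.532% (A run), 0.608% (TG repeat) and 0.292% (G run) of tiles.

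Strings of the red cell and liver factors were scarce in wide footprints. The GATA string, searched as AGATAAG, was found in 8 wide and 7 narrow footprints, a ratio of 0.898 (0.326 to 2.47). Against narrow footprints of all peaks the ratio was 0.121 (0.0603 to 0.244), and 1.61% of the 496 footprints with it were wide, while 83.5% were of 7 to 10 bp. The TAL1 and GATA pair, CTG followed after 7 to 9 bases by AGATAA or AGATAG or TGATAA or TGATAG, was found in 15 wide and 3 narrow footprints, a ratio of 3.93 (1.14 to 13.6). Against narrow footprints of all peaks that ratio was 0.219, and 2.73% of the 549 footprints with the pair were wide. NFE2 (GCTGANTCA) was in 4 wide and 1 narrow footprints, and AP1 (TGANTCA) in 17 and 22. Against narrow footprints of all peaks their ratios were 0.143 (0.0533 to 0.386) and 0.263 (0.162 to 0.428). FOXA (TGTTTAC) was in 8 and 9, HNF4 (CAAAGTCCA) in 1 and 2, ONECUT (ATCAATA) in 3 and 3, and NFI (TTGGC and GCCAA separated by 5 bases) in 5 and 2. HNF1 (GTTAATNAT) and NR5A2 (TCAAGGTCA) were in 0 of 8759 wide footprints, which allows a share of up to 0.0421%, and in 1 narrow footprint each. Of tiles, 0.643% held GATA, 0.392% the TAL1 and GATA pair, 0.198% NFE2, 0.796% AP1, 0.354% FOXA, 0.0424% HNF4, 0.117% ONECUT, 0.00791% NFI, 0.0523% HNF1 and 0.0358% NR5A2.

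For the remaining strings the intervals of the ratio against narrow footprints of the same peaks held 1. ETS (CCGGAAG) was in 1.16% of wide and 1.44% of narrow footprints, a ratio of 0.809 (0.615 to 1.07). At starts the ETS ratio was 1.37 (1.03 to 1.83), away from them 0.145 (0.0485 to 0.433) and in the lists of technical replicate 1 1.52 (1.33 to 1.73). YY1 (AAGATGGC) had a ratio of 1.05 (0.681 to 1.61), which was 0.233 at starts and 2.26 away from them. MAZ (GGGGAGGG) had a ratio of 0.845, which was 0.532 against narrow footprints of all peaks and 1.997 in the lists of technical replicate 1. The TATA string TATAAAA had a ratio of 1.57, the E-box CACGTGA of USF and MYC 0.677, TEAD (CATTCCA) 0.550 and ZBTB33 (CTCGCGAGA) 0.458. ZNF143 (ACTACAATT) was in 10 wide and 2 narrow footprints. Of tiles, 0.635% held ETS, 0.212% YY1, 1.04% MAZ, 0.248% the TATA string, 0.299% the E-box, 0.352% TEAD, 0.0280% ZBTB33 and 0.0177% ZNF143. These intervals do not show that the shares were alike.

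Words of 8 letters that differed most between wide and narrow footprints on odd-numbered autosomes were counted on the even-numbered ones, which did not choose them. All 5 chosen for wide footprints were more frequent there too, by 8.33 points on average. CAGGGGGC was in 10.6% of wide and 0.420% of narrow windows, AGGGGGCG in 10.5% and 1.22%, GCGCCCCC in 8.36% and 0.559%, AGAGGGCG in 7.93% and 0.734%, and CCACCAGG in 7.57% and 0.350%. CAGGGGGC, AGGGGGCG, AGAGGGCG and CCACCAGG are stretches that the CTCF consensus allows, so they are not separate from the CTCF result. GCGCCCCC reads GGGGGCGC on the other strand, a stretch that the end of the consensus allows plus the base after it. That base was C at 50.4% of CTCF matches under wide footprints, so this word is not shown to be separate either. The 5 words chosen for narrow footprints differed less: CCCGCCTC was in 0.552% of wide and 1.47% of narrow windows, CCCCTCCC in 1.16% and 1.19%, and CCGCCCAG was in 0.604% and 0.594%, the other way. Among wide footprints with no CTCF match of up to 1 mismatch, the leading word was CCCCGCCC, with 11.9% of wide and 3.18% of narrow windows. AGGGGGCG, a stretch of the CTCF consensus, was still in 6.10% of these wide and 1.22% of narrow windows.

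Of 13795 protein-coding genes with a peak within 1 kb of a start, 2668 had a wide footprint there, or 19.3%. The numbers for the marker lists are a description beside that share, and some lists are small. Of 18 housekeeping genes 10 had one, among them Ywhaz, an adaptor protein gene, with a 34 bp footprint that held the CREB string, Sdha, a subunit of succinate dehydrogenase, with a 26 bp footprint that held NRF1, and Tbp, the TATA-binding protein gene, with a 21 bp footprint. Of 38 ribosomal protein genes 13 had one, among them Rpl18 with 3, the densest of which held the CREB string, Rps2 and Rpl9. With a minimum of 25 bp the counts were 2 of 18 and 4 of 38, beside 6.32% of all protein-coding genes.

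Of 27 erythroid genes 6 had a wide footprint at a start. Among them were Epor, the erythropoietin receptor gene, Tfrc, the transferrin receptor gene, and Zfpm1, the gene of a partner of GATA factors. The footprint at Tfrc was 23 bp wide and 70 bp from a start, at chr16:32608839-32608861, in a peak of density 6.68 in technical replicate 7 and 5.53 in technical replicate 1. Those at Zfpm1 and Epor were 21 bp wide and 634 and 976 bp from a start. None of these 3 held any of the 33 strings, and all 3 had their midpoint in a footprint of technical replicate 1. With a minimum of 25 bp, 0 of the 27 had one. Of 28 hepatoblast genes, 1 had a wide footprint at a start, that of the pioneer factor Foxa1, 30 bp wide and 987 bp from a start. Thbs1 was the only one of 8 megakaryocyte genes, Vim of 17 mesenchymal and stellate genes and Gad1 of 12 neuronal genes, and the 25 bp footprint at Gad1 held the CTCF consensus. There was none at 18 haematopoietic progenitor, 11 endothelial, 7 striated muscle, 4 lymphoid and 2 macrophage genes.

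Most genes with a wide footprint at a start had 1 (2263), 346 had 2 and 51 had 3. Gnb2, a G-protein subunit gene, had 6. Epo, the erythropoietin gene, had 4, and the footprint in the densest peak was for both genes the same one of 20 bp, at chr5:137533589-137533608. Arrdc3, an arrestin-domain gene, had 5. Sinhcaf, a gene of a histone deacetylase complex, Ell, a transcription elongation factor gene, Bicdl1 and Sh3glb1 had 4 each. Snrnp70, a splicing factor gene, and Pnkd had 3 each, in peaks of density 10.9 and 8.43. Gm10717 also had 4, the first of 43 bp at chr9:3031048-3031090, in a peak of density 6.76 in technical replicate 7 and 1.79 in technical replicate 1. The part of mapping at Gm10717 was not tested.

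The widest members differed from the rest in several measures. Of the 61 members of 44 bp or more, 59.0% had their midpoint in lower-case, repeat-masked reference sequence (45.7 to 71.4), against 8.72% of all members, and 32.8% had it in a footprint of technical replicate 1 (21.3 to 46.0), against 78.7%. Their mean GC was 47.5% ± 12.2 (SD, n = 61), 63.9% lay between genes and 1 held the CTCF consensus. The widest member had 93 bp, at chr9:108599154-108599246, 1533 bp from a start of P4htm, and a 54 bp member followed it in the same peak of density 13.9. A 65 bp member lay in an intron of Srsf7, a splicing factor gene, at chr17:80204879-80204943, in a peak of density 4.61. Of the 10 widest members, 8 had their midpoint in repeat-masked sequence and 1 had it in a footprint of technical replicate 1. Their peaks were 179 to 190 bp long, with densities of 3.91 to 13.9, and 1 of the 10 lay in a peak shared with technical replicate 1. The part of mapping in repeats was not tested.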

How the data were processed

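DNase-seq libraries of 1 biosample, technical replicates 7 and 1, were used as deposited by the authors, on mm10 per the labels. The program behind each step (alignment, peaks, footprints) is not given in the sources used here. Deposited footprint lists are intervals, and that of technical replicate 1 carries a constant p-value or FDR column of 0.01. The deposited peak lists give a signal, the density of DNase cuts. Technical replicate 7 has 2 lists of each kind, and the shorter ones were used. The lists of technical replicate 1 had other processing, so numbers of footprints are not comparable between libraries. Total cuts per library are not given in the files used, so the depth is unknown.

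Members, gene lists and motifs were chosen with earlier results of these data known. Footprints were placed by their midpoint: within 1 kb of a transcript start of the GENCODE M21 basic annotation, else exon, intron or intergenic. Sequence came from GRCm38. Shares have exact Clopper-Pearson intervals, differences of shares Newcombe intervals, differences of means normal intervals and ratios log-scale intervals; no test over samples was possible. Named items were fixed by rule: the 10 widest members, the 2 densest members for each of the 6 motifs with the highest ratio (at least 20 wide footprints) and for CTCF, NRF1, SP and NFY, up to 3 genes of each list, the 10 genes with the most wide footprints at starts and 5 words. Some items that this rule names are not reported here. The motif search was tested on simulated data. Python 3.11.15, numpy 2.4.6, pandas 2.3.3, scipy 1.17.1 and matplotlib 3.10.9 were used. Per-position cut-rate lists of technical replicate 1 were not used, since they describe whole open regions.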

Additional observations from a re-analysis of the deposited data

How the results depend on the processing

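The number of wide footprints was 18719 with a minimum of 15 bp, 3517 with 25 bp, 24453 in the longer footprint list and 17126 in the lists of technical replicate 1. The difference at starts stayed below 0 in all 10 alternatives: -7.50 points against narrow footprints of all peaks (-21.2 when weighted to peak density), -6.14 in the longer footprint list, -13.4 with 25 bp, -15.3 in shared peaks, -18.7 outside lower-case sequence and -9.03 in technical replicate 1. The difference in midpoints inside the other library's footprints was 47.5 points against narrow footprints of all peaks, 41.1 in the longer list, 39.97 with 25 bp, 43.6 in shared peaks and 38.8 away from starts. The GC difference reversed to 1.90 points in the longer list, 3.83 away from starts and 3.47 in the 31 bp window. It was -2.57 against narrow footprints of all peaks (-5.57 weighted), -0.818 with 25 bp, -2.34 outside lower-case sequence and -3.30 at starts.

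Motifs with a ratio above 1 and an interval without 1 numbered 8, but 13 in the longer list, 4 with 25 bp and 3 away from starts. Those below 1 numbered 8, but 14 against narrow footprints of all peaks and 3 at starts. The CTCF ratio of 115 was 10.4 against narrow footprints of all peaks (14.7 weighted), 256 with 25 bp, 24.1 in 51 bp, 527 in 21 bp and 46.3 with 1 mismatch. Among motifs whose interval left out 1, ratios that changed side were SP away from starts (0.985), KLF in technical replicate 1 (1.23), the A run at starts (1.38), the G run outside lower-case sequence (0.944) and away from starts (0.837), and the TAL1 and GATA pair against narrow footprints of all peaks (0.219, weighted 0.262) and in technical replicate 1 (0.882). Of the other ratios and alternatives 289 stayed within the interval and 75 moved out of it. Of the former 21 and of the latter 13 crossed 1. The 13 were all of motifs whose interval held 1 (ETS, YY1, NFE2, the E-box, TATA and MAZ), among them NFE2 at 0.143 against narrow footprints of all peaks, the E-box at 1.23 in technical replicate 1 and TATA at 0.290 away from starts. The CTCF footprints that were wide made up 39.3% in 51 bp windows and 56.8% in shared peaks. Median density was 1.97 in shared peaks. Listed genes with a wide footprint at a start fell from 32 to 8 with 25 bp. The causes were not tested.

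Alternatives that left out the members of 44 bp or more or lower-case sequence, or that weighted by peak density, were chosen after seeing the data. The description of per-position calls was not run. The members rest on technical replicate 7 alone, so leaving it out leaves none, and the lists of technical replicate 1 stand in for that. No paired analysis was possible because both libraries belong to 1 group of 1 biosample. Rare strings, with 1 to 5 matches, are limited by their number.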
